A study of Mus musculus with 20 samples.

Results

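Accessible chromatin was compared between luminal progenitor cells and mature luminal cells of the adult mouse mammary gland. Each cell type has 1 peak list, which the authors called on its 2 samples together, and the members are all peaks of both lists on the 19 autosomes and X. These are 121614 peaks, 60030 of luminal progenitors and 61584 of mature luminal cells, of 281818 in the 4 pooled peak lists of the series. A peak counts as shared when it has at least 1 base in common with a peak of the other luminal list. By this rule 21316 luminal progenitor peaks and 22380 mature luminal peaks had no counterpart, and they are called luminal-progenitor-only and mature-luminal-only peaks below. The other 38714 and 39204 peaks are the shared ones.

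All normal cells came from mammary glands of C57BL6J wild-type mice and were sorted by flow cytometry, and 2 samples per type were profiled by ATAC-seq, which uses Tn5 transposase to cut and tag open DNA. The luminal samples were from adults, as were the 2 basal samples, while the 2 fMaSC samples came from embryos at day 18. The basal and fMaSC peak lists serve here as context. So do 2 region lists from PY230, a mouse mammary tumour line transplanted into syngeneic mice. They hold regions called open or closed in luminal PY230 cells with high SOX10 (3 samples) against those with low SOX10 (3 samples). Neither the sorting markers nor the number of mice per sample is given in the sources used here. Each list combines its samples and the files hold no reads, so the depth is unknown, no replicate error exists and no test between cell types was possible. Intervals are exact (Clopper-Pearson) 95% binomial intervals over peaks, and they cover counting error only. The labelled cell types were not checked against marker genes, since no gene annotation of the mm9 build was used here.

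The inner layer of the mammary duct holds a pair of main luminal lineages. Luminal progenitors proliferate and give rise to the secretory alveolar cells that make milk. Mature luminal cells are the hormone-sensing cells, which carry receptors for oestrogen and progesterone and signal to their neighbours. Basal cells form the contractile layer around both, and fMaSC are fetal mammary stem cells, whose descendants form all of these layers. SOX10, a DNA-binding protein best known from the neural crest, also occurs in mammary stem and progenitor cells. Most sites that set related cell types apart are known to be distal regulatory elements rather than promoters.

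Together the luminal lists covered 81654 separate regions and 61.9 Mb. Peaks of both lists met in 37958 of these regions (46.5%), which held 41.2 Mb. Luminal progenitor peaks alone stood in 21316 regions (26.1%) and 10.8 Mb, and mature luminal peaks alone in 22380 regions (27.4%) and 9.98 Mb. By number, the sites of 1 luminal type thus made up more than 50% of the regions, but they were the narrow ones. Luminal-progenitor-only peaks had a median width of 431 bp (quartiles 306 and 626 bp), against 773 bp (476 and 1243 bp) for shared luminal progenitor peaks. Mature-luminal-only peaks had a median width of 401 bp (292 and 543 bp), against 729 bp (471 and 1090 bp) for shared ones. The widest luminal-progenitor-only peak spanned 3146 bp and the widest mature-luminal-only peak 2678 bp, whereas shared peaks reached 18137 bp and 22188 bp.

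The strongest sites of each luminal type were nearly all open in the other type as well. Peaks were ordered by the authors' fold, a ratio over the peak caller's background, and divided into 10 rank classes within their own list. Equal folds share a class, so the classes hold between 4850 and 7035 peaks. In the strongest class, 5953 of 6067 luminal progenitor peaks overlapped a mature luminal peak (98.1%, interval 97.7 to 98.4%), and 6204 of 6273 mature luminal peaks met one of the luminal progenitor list (98.9%, 98.6 to 99.1%). In the weakest class the shares were 30.3% (29.2 to 31.4%) and 37.5% (36.3 to 38.7%). Over the whole lists 64.5% of luminal progenitor and 63.7% of mature luminal peaks overlapped, so the weakest classes lay far below the list and the strongest far above. The share rose from each class to the next in both lists. Width rose with rank too, from a median of 303 to 1620 bp in luminal progenitors and from 289 to 1345 bp in mature luminal cells. Of peaks 1000 bp or wider, 91.7% and 96.3% were shared, against 40.0% and 35.2% of peaks narrower than 300 bp. With every peak set to 500 bp around its centre, the shares still ran from 29.4 to 95.1% over the rank classes of luminal progenitors and from 34.3 to 95.9% over those of mature luminal cells.

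**Figure D1:**
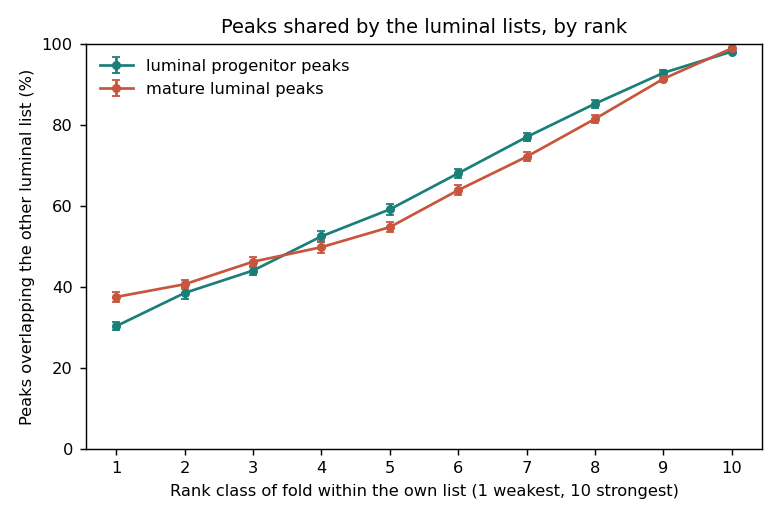
The vertical axis gives the percent of peaks that overlap a peak of the other luminal list, and the horizontal axis the rank class of fold within the own list, with exact 95% binomial intervals as bars. Both curves climb without a fall, from 30.3% to 98.1% for luminal progenitor peaks and from 37.5% to 98.9% for mature luminal peaks.

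Few peaks of 1 luminal type only were among the strongest. Of luminal-progenitor-only peaks, 114 lay in the strongest class and 4903 in the weakest, and of mature-luminal-only peaks 69 and 3856. Their median fold stood at percentile 29.3 of the luminal progenitor list and at percentile 29.6 of the mature luminal list. Shared peaks had medians at percentile 64.0 and 63.4.

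The rule of 1 shared base left few peaks near its edge. An overlap of at most 100 bp joined 127 luminal progenitor peaks and 127 mature luminal peaks, with medians at percentile 9.85 and 11.9 of fold. Just outside, 70 luminal-progenitor-only peaks and 57 mature-luminal-only peaks had a peak of the other list within 100 bp, with medians at percentile 9.85 and 15.7. Most of the others were well separated. The median distance to the nearest peak of the other luminal list was 7532 bp for luminal-progenitor-only peaks and 9826 bp for mature-luminal-only peaks. A peak of the other type lay within 1 kb of 12.6% of the former and 9.03% of the latter. At the far end, 926 luminal-progenitor-only peaks (4.34%) and 1929 mature-luminal-only peaks (8.62%) were more than 100 kb from any peak of the other type.

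Where the luminal types shared a site, they mostly shared it peak for peak. A single luminal progenitor peak met a single mature luminal peak in 36160 pairs. The centres of a pair were 61 bp apart in the median, and 68.9% of pairs had centres within 100 bp. The luminal progenitor peak was the wider one in 58.1% of pairs, with medians of 763 and 727 bp. Broader sites broke up differently, as 1092 luminal progenitor peaks spanned 2 mature luminal peaks and 72 spanned 3 or more. In the other direction 682 mature luminal peaks spanned 2 luminal progenitor peaks and 33 spanned 3 or more.

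Strong sites of one type tended to be strong sites of the other. Across the 36160 pairs, Spearman's rho between the ranks of fold was 0.62, given as a description since neighbouring regions are not independent and both ranks follow width. Of the 5507 pairs in the strongest class of the luminal progenitor list, 3598 (65.3%) were in the strongest class of the mature luminal list, which is 62.4% of the 5767 pairs there. Pairs at the top of one list and below the median of the other were rare. There were 178 with the luminal progenitor peak in the strongest class and the mature luminal peak below the median, and 451 of the opposite kind.

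**Figure D2:**
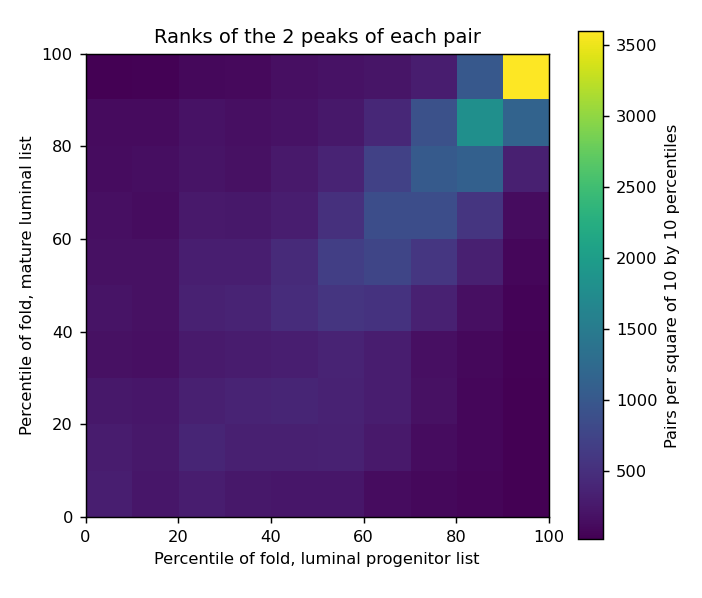
Each square counts pairs of 1 luminal progenitor and 1 mature luminal peak by the percentile of fold in the luminal progenitor list (horizontal) and in the mature luminal list (vertical), with the count as colour. Pairs gather along the diagonal, and the brightest square, at the top of both lists, holds 3598 of the 36160 pairs.

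Among all 36160 pairs, 83.4% had a basal peak and 79.8% an fMaSC peak, 12.7% lay in a PY230 region closed in SOX10-high cells and 0.531% in an open one. The unequal pairs departed from these shares. Of the 178 pairs at the top of the luminal progenitor list and low in the mature luminal list, 160 (89.9%, interval 84.5 to 93.9%) had a basal peak and 168 (94.4%, 89.9 to 97.3%) an fMaSC peak. Of the 451 pairs at the top of the mature luminal list and low in the luminal progenitor list, 169 (37.5%, 33.0 to 42.1%) had a basal peak and 96 (21.3%, 17.6 to 25.4%) an fMaSC peak. In PY230 cells, 410 of these 451 pairs (90.9%, 87.9 to 93.4%) lay in a region closed in SOX10-high cells. None of the 178 pairs of the first kind did. The exact interval reaches 2.05%, and 1.69% results when 3 counts are taken as the limit of a count of 0. Of these 178 pairs, 17 (9.55%, 5.66 to 14.9%) lay in an open region. Pairs at the top of both lists nearly always had peaks of the other normal types, a basal peak at 3576 of 3598 (99.4%) and an fMaSC peak at 3574 (99.3%). The 178 pairs thus lay above all pairs in both shares, but below these pairs of the same luminal progenitor rank class.

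Basal and fetal cells had peaks at a larger share of luminal-progenitor-only sites than of mature-luminal-only sites. A basal peak was present at 12424 of 21316 luminal-progenitor-only peaks (58.3%, interval 57.6 to 58.9%), compared with 74.6% of all luminal progenitor peaks. It was present at 4991 of 22380 mature-luminal-only peaks (22.3%, 21.8 to 22.9%), compared with 61.5% of all mature luminal peaks. An fMaSC peak was present at 54.9% (54.3 to 55.6%) of luminal-progenitor-only peaks and 18.8% (18.3 to 19.4%) of mature-luminal-only peaks, against 70.8% and 57.5% of the whole lists. The fMaSC share of luminal-progenitor-only peaks fell under 50%, to 48.72%, when 50% of the peak had to be covered, and to 49.48% with the centre base alone. With both lists cut to their 30015 strongest peaks, the basal share of mature-luminal-only peaks was 36.76% and the fMaSC share 31.06%. Cut at the median fold, they were 36.56% and 30.9%. For luminal-progenitor-only peaks the same cuts gave 80.43% and 79.86%, and 79.79% and 79.37%. In cut lists a peak with a weaker counterpart counts as unshared, so these classes hold other sites. Under the main rule the basal share of mature-luminal-only peaks was 24.2% in the weakest rank class (932 of 3856) and 17.4% in the eighth (190 of 1094). It was 24.6% in the strongest, which holds few such peaks (17 of 69). On each of the 20 chromosomes the luminal-progenitor-only peaks had the higher share in both comparisons. The basal share ranged from 53.2 to 62.4% in luminal-progenitor-only and from 14.96 to 33.5% in mature-luminal-only peaks, and chromosome 11 was highest in both.

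Taken by combination, 8954 luminal-progenitor-only peaks (42.0%) had both a basal and an fMaSC peak, 3470 (16.3%) a basal peak without an fMaSC peak, and 2756 (12.9%) an fMaSC peak without a basal peak. The remaining 6136 (28.8%, 28.2 to 29.4%) had neither. Among mature-luminal-only peaks the corresponding counts were 2607 (11.6%), 2384 (10.7%) and 1611 (7.20%), and 15778 (70.5%, 69.9 to 71.1%) had neither. Shared peaks are the same sites seen from either list, and basal and fMaSC peaks were both present at 74.3% of them in the luminal progenitor and 74.3% in the mature luminal list. Neither was present at 11.1% and 10.9% of them.

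**Figure D3:**
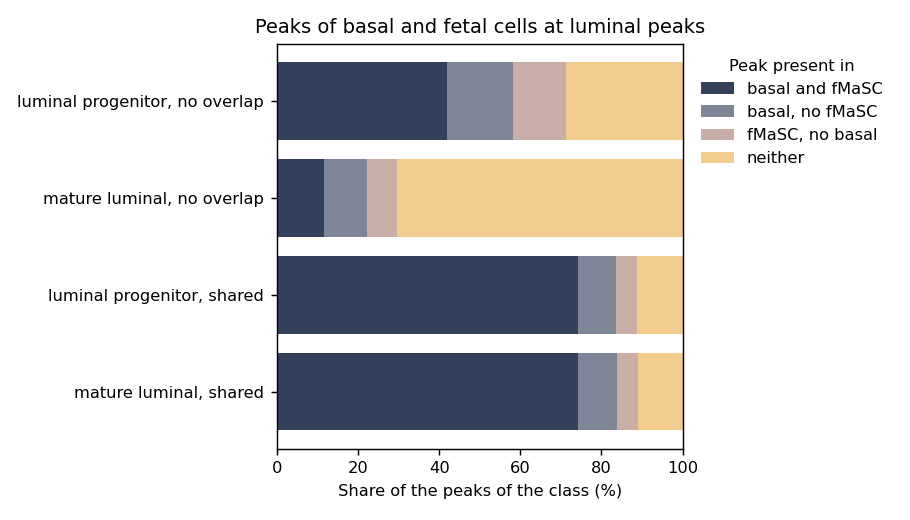
Each bar is a class of luminal peaks, divided by percent into those with basal and fMaSC peaks, with 1 of these, or with neither. The segment without any basal or fMaSC peak covers 70.5% of mature-luminal-only peaks, 28.8% of luminal-progenitor-only peaks and 11.1% and 10.9% of shared peaks.

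These shares followed rank in luminal-progenitor-only peaks. Among luminal-progenitor-only peaks, a basal peak was present at 47.2% in the weakest class and at 85.1% (97 of 114) in the strongest. An fMaSC peak was present at 40.6% and 86.8% (99 of 114). Neither was present at 7.02% of the strongest. Shared luminal progenitor peaks followed rank likewise, from 52.9 to 98.9% with a basal peak and from 44.1 to 99.0% with an fMaSC peak, so in both of these classes the luminal-progenitor-only peaks lay below the shared ones. Among mature-luminal-only peaks the share with neither changed little with rank, from 68.7% in the weakest to 71.0% in the strongest class, with 75.7% at most. When the centre base of the peak had to lie in the basal peak, the share at luminal-progenitor-only peaks was 43.8% in the weakest and 78.9% in the strongest class.

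Of the 5 luminal-progenitor-only peaks of highest fold, each had a basal peak and 4 an fMaSC peak. The first, on chromosome 7 from 80341425 to 80343624 (mm9 throughout), was 2200 bp wide with a fold of 26.2, and its nearest mature luminal peak was 22955 bp away. It held a basal and an fMaSC peak and lay in a mature luminal URR. The authors deposited a URR and a UAR list for each type. Of mature luminal URRs, 79.1% held a luminal progenitor peak and no mature luminal peak. The 27 luminal progenitor URRs held a mature luminal peak alone in 13 cases and both in 14. A peak of the own type alone was held by 80.7% of luminal progenitor UARs and 57.3% of mature luminal UARs. The next, on chromosome 12 from 10520030 to 10521879, had a fold of 25.4 and a basal but no fMaSC peak. Those on chromosome 14 from 117380453 to 117381440 (fold 24.1), on chromosome 17 from 91965083 to 91966333 (23.3) and on chromosome 3 from 109951203 to 109952654 (22.4) each held a peak of both other types. The chromosome 17 peak was the most isolated of these, 750.1 kb from any mature luminal peak. The one on chromosome 3 lay in a luminal progenitor UAR.

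Of the 5 mature-luminal-only peaks of highest fold, 4 had neither. The strongest, on chromosome 14 from 34284320 to 34285280, was 961 bp wide with a fold of 31.4 and had no basal, fMaSC or luminal progenitor peak. The same held for the peaks on chromosome 10 from 31182365 to 31183468 (fold 25.4), on chromosome 5 from 125371714 to 125372997 (24.7) and on chromosome 5 from 91406872 to 91408560 (24.4). The last of these had a separate luminal progenitor peak only 229 bp away. All 4 lay in a mature luminal UAR (3282 in all) and in a region closed in SOX10-high PY230 cells. The peak on chromosome 15 from 90547947 to 90549572 (fold 25.4) was also closed in those cells but held basal and fMaSC peaks. Folds are ordered within a list and were not compared between lists.

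The strongest shared pairs were sites with a peak in all 4 normal types. They lay on chromosome 2 from 98506312 to 98507579, on chromosome 17 from 39979858 to 39985858, on chromosome 2 from 98502300 to 98503226, on chromosome 8 from 4676728 to 4680129 and on chromosome 15 from 44258352 to 44260351, as the luminal progenitor list gives them. None lay in a PY230, UAR or URR region used here. Whether they lie in repeats was not tested.

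PY230 regions divided along the same line. The share of luminal-progenitor-only peaks in a region open in SOX10-high cells was 7.22% (1538 of 21316, interval 6.87 to 7.57%), compared with 2.89% of all luminal progenitor peaks. For mature-luminal-only peaks it was 0.183% (41 of 22380, 0.131 to 0.248%), against 0.391% of all mature luminal peaks. Regions closed in SOX10-high cells held 8551 mature-luminal-only peaks (38.2%, 37.6 to 38.8%), compared with 21.6% of all mature luminal peaks. They held 201 luminal-progenitor-only peaks (0.943%, 0.818 to 1.08%), compared with 8.41% of all luminal progenitor peaks. With both lists cut to their 30015 strongest peaks, the closed share was 59.42% in mature-luminal-only and 1.919% in luminal-progenitor-only peaks. Cut at the median fold these were 58.63% and 1.769%, and the open share of mature-luminal-only peaks was 0.1215%. The cut lists count a peak with a weaker counterpart as unshared, so their classes hold other sites. Under the main rule the closed share of luminal-progenitor-only peaks was 1.45% in the weakest rank class and 0.350% in the eighth. No luminal-progenitor-only peak of the ninth class (438 peaks) or the strongest (114 peaks) was closed. With 3 counts as the limit of a count of 0, the bounds are 0.685% and 2.63%. The bound of the strongest class lies above the share of the weakest. With every normal peak set to 500 bp, 1.45% of luminal-progenitor-only peaks were closed. On all 20 chromosomes the open share was higher in luminal-progenitor-only peaks and the closed share higher in mature-luminal-only peaks. The closed share of mature-luminal-only peaks ran from 30.6% on chromosome X to 42.9% on chromosome 6.

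The closed share of mature-luminal-only peaks rose steeply with their rank. It was 17.1% in the weakest class, 44.8% in the fifth, 79.2% in the eighth and 94.2% in the strongest, where 65 of 69 peaks lay in a closed region. With the centre base alone it ran from 16.8 to 94.2%, as wide a range as with the whole peak. None of the 69 strongest lay in an open region, where the same limit of 3 counts gives a bound of 4.35%, which is not the exact one. Shared mature luminal peaks were closed most often in the ninth class, in 1026 of 5708 cases. The open list is the shorter one, with 3208 regions against 15108 closed ones. Luminal-progenitor-only peaks rose in the open list over a smaller range, from 4.67% in the weakest class to 16.7% (73 of 438) in the ninth. In the strongest class the open share was 15.8% (18 of 114). With the centre base alone the weakest class stood at 4.59%, and the ninth and the strongest class were as before. Shared luminal progenitor peaks stayed at or below 0.702% open in each class.

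**Figure D4:**
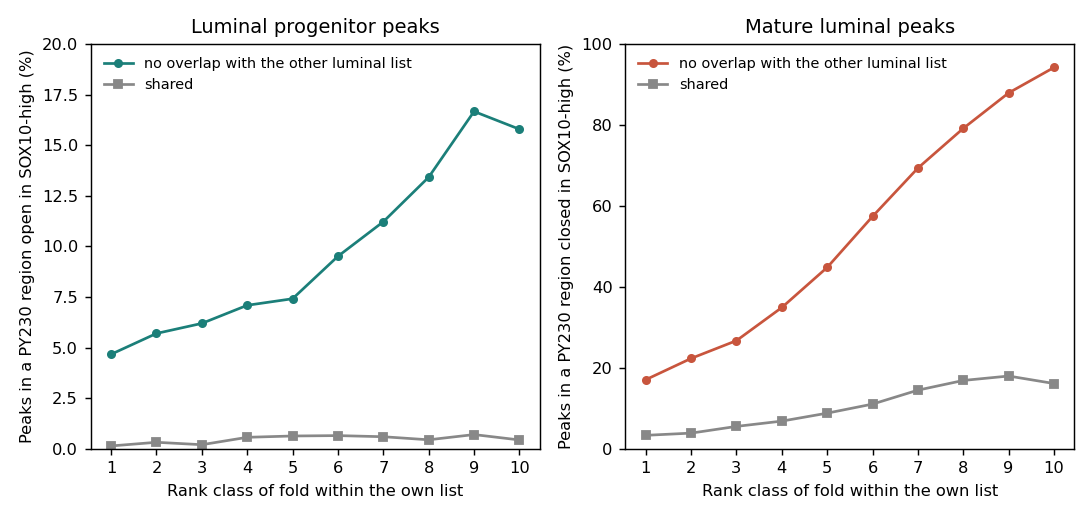
The left panel plots the percent of luminal progenitor peaks in regions open in SOX10-high PY230 cells, the right panel the percent of mature luminal peaks in regions closed in them, both by rank class of fold within the own list and on different vertical scales. Peaks without overlap rise to 16.7% (left) and 94.2% (right), and shared peaks, in grey, stay at or below 0.702% (left) and reach 17.97% (right). The open list holds 3208 regions and the closed list 15108.

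Regions open in SOX10-high cells took up a larger share of the luminal-progenitor-only sites without a basal peak than of those with one. The open share was 12.0% (10.9 to 13.3%) in those with an fMaSC but no basal peak and 9.66% (8.94 to 10.4%) in those with neither. It was 5.28% (4.83 to 5.77%) in those with both and 4.03% (3.40 to 4.74%) in those with a basal peak alone. For mature-luminal-only peaks the closed share was 42.8% (42.0 to 43.6%) where neither other type had a peak. It was 30.2% where basal cells alone had one, 27.3% where fMaSC alone did and 24.5% (22.9 to 26.2%) where both did.

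Seen from the PY230 lists, 1361 of 3208 open regions (42.4%, 40.7 to 44.2%) held a luminal progenitor peak and no mature luminal peak, and 34 (1.06%) the reverse. Both were present in 200 (6.23%), and 1613 (50.3%) had no luminal peak. Of 15108 closed regions, 7913 (52.4%, 51.6 to 53.2%) held a mature luminal peak alone, 107 (0.708%) a luminal progenitor peak alone, 4644 (30.7%) both and 2444 (16.2%) none. The open region with the strongest luminal-progenitor-only peak lay on chromosome 17. That peak spans 68280116 to 68281218, has a fold of 21.0 and lies in a luminal progenitor UAR with no basal or fMaSC peak. The second, on chromosome 18 from 78797627 to 78798734, has a fold of 20.6, holds peaks of both types and lies in a mature luminal URR. The first 2 mature-luminal-only peaks named above are also the strongest in closed regions.

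Shared sites divided in PY230 cells by their rank in the luminal lists. The 4580 pairs in closed regions had a median at percentile 38.6 of the luminal progenitor list and at percentile 76.4 of the mature luminal list, and the mature luminal peak had the higher percentile in 86.5%. The 192 pairs in open regions had medians at percentile 65.2 and 26.4, and the luminal progenitor peak ranked higher in 88.0%. Among the 31388 pairs in neither, the medians were 67.4 and 62.2. The lists differ in length, so a percentile is a place within a list and not a level.

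The UAR and URR lists come from the same samples as the peaks, so they describe the classes and are not independent of them. Of 306 luminal progenitor UARs, 247 (80.7%) held a luminal progenitor peak without a mature luminal peak, and 59 held both. Of 3282 mature luminal UARs, 1880 (57.3%, 55.6 to 59.0%) held a mature luminal peak alone and 1400 (42.7%) held both. In the 1392 one-to-one pairs inside mature luminal UARs, the luminal progenitor peak had a median at percentile 37.2 and the mature luminal peak at percentile 90.8. Of 1028 mature luminal URRs, 813 (79.1%, 76.5 to 81.5%) held a luminal progenitor peak alone and 212 both. Of the 27 luminal progenitor URRs, 13 held a mature luminal peak alone and 14 held both.

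Sites of 1 luminal type were spread over all chromosomes, in unequal proportion. Luminal-progenitor-only peaks made up 27.8% of the luminal progenitor peaks of chromosome 7 and 42.2% of those of chromosome 13. Mature-luminal-only peaks made up 31.5% on chromosome X and 40.0% on chromosome 9. Luminal-progenitor-only peaks outnumbered mature-luminal-only peaks on 9 of 20 chromosomes. The ratio was highest on chromosome 18, at 1.28 (910 against 710), and lowest on chromosome 5, at 0.726 (1069 against 1473).

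**Figure D5:**
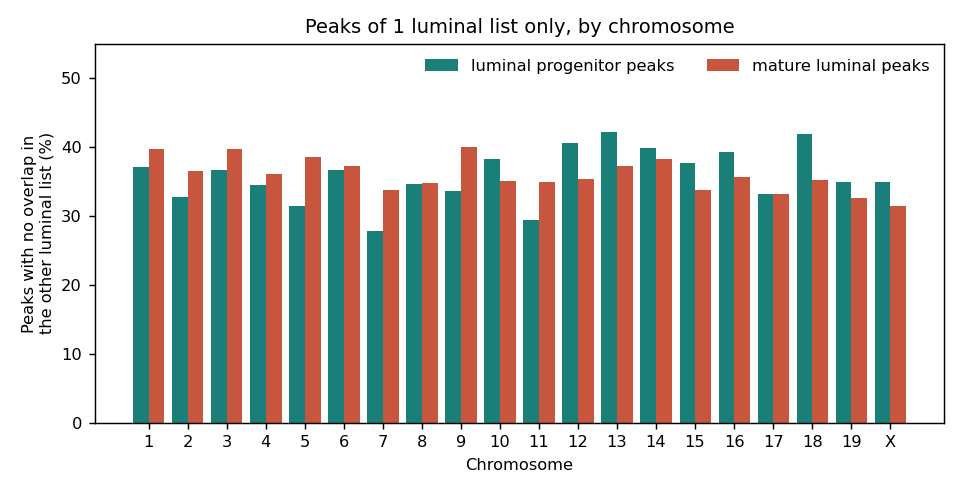
Bars give, for each chromosome, the percent of luminal progenitor and of mature luminal peaks with no overlap in the other luminal list. The luminal progenitor bars range from 27.8% (chromosome 7) to 42.2% (chromosome 13) and the mature luminal bars from 31.5% (X) to 40.0% (9).

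Along a chromosome, sites of the same type often followed one another. Counting uninterrupted runs in the joint list of luminal regions, 41.3% of luminal-progenitor-only and 41.0% of mature-luminal-only peaks stood alone, while 2386 (11.2%) and 2894 (12.9%) belonged to runs of 5 or more. The longest luminal progenitor run had 18 peaks in 314.9 kb on chromosome 5 from 75889968 to 76204864, and their folds lay between percentiles 13.7 and 87.2. Only 4 of the 18 overlapped a basal peak and 5 an fMaSC peak. Of the 18 peaks, 7 lay in PY230 open regions and 3 in luminal progenitor UARs, of which there are 306 in all. Over all luminal-progenitor-only peaks, 58.3% overlapped a basal peak, 54.9% an fMaSC peak and 7.22% an open region. The next 3 runs had 15 peaks each. One lay on chromosome 5 from 81452998 to 81698948, with 6 peaks that basal cells shared and 4 in open regions. Another extended over 2216 kb on chromosome 17 from 91252784 to 93468326, where basal cells had 10 and fMaSC 12 of the sites and no peak lay in a PY230 region. The other, on chromosome 6 from 41584916 to 42172587, had 9 sites shared with basal cells and 12 with fMaSC, and none in a PY230 region.

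The longest mature luminal run had 21 peaks in 794.5 kb on chromosome 8 from 120807731 to 121602181. Of these, 9 lay in closed PY230 regions, 9 overlapped a basal peak and 8 an fMaSC peak. Over all mature-luminal-only peaks the shares were 38.2%, 22.3% and 18.8%. A run of 17 on chromosome 11 from 80789566 to 81988643 had 5 peaks in closed regions and 4 in mature luminal UARs. There are 3282 such UARs in all. Another run of 17 on chromosome 8, from 99072722 to 106339515, was stretched over 7267 kb. In that span basal cells had 21 peaks and fMaSC 58, but only 1 of the 17 mature luminal sites overlapped a basal and 1 an fMaSC peak.

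In fixed windows of 1 Mb, the median number of peaks of 1 type only was 8 for either type, over windows with a peak of that type. Windows were ordered by this number, so a window with many peaks of any kind ranks high. Over the whole lists, 35.5% of luminal progenitor and 36.3% of mature luminal peaks were of 1 type only. Luminal-progenitor-only peaks were most numerous on chromosome 15 from 25000001 to 26000000, with 42 among 100 luminal progenitor peaks. Beside them stood 18 mature-luminal-only peaks. The windows starting at 53000001 on chromosome 19 and at 24000001 on chromosome 10 followed, with 39 of 88 and 37 of 55 luminal progenitor peaks. Mature-luminal-only peaks were most numerous on chromosome 14 from 26000001 to 27000000, with 54 among 117 mature luminal peaks. Of these 54, 8 lay in closed regions. On chromosome 9 the window from 8000001 to 9000000 held 49 mature-luminal-only peaks of 63, while luminal progenitors had 19 peaks there, 5 of them luminal-progenitor-only. Only 3 of those 49 overlapped a basal peak and 3 an fMaSC peak. The third window, on chromosome 3 from 121000001 to 122000000, had 46 among 93 mature luminal peaks, and 18 of the 46 lay in closed regions. Over all mature-luminal-only peaks, 38.2% lay in closed regions, 22.3% overlapped a basal peak and 18.8% an fMaSC peak.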

How the data were processed

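Libraries were made with a Nextera transposase and sequenced as read pairs on an Illumina instrument, as the labels' protocols state. MACS2 2.1.1, SICER, bedtools 2.20.1, Bowtie 0.12.8, SAMtools 1.3.1, FastQC and the mm9 build are named in the submitters' processing notes, without roles. Filtering of duplicates, repeats and mitochondrial reads, and the treatment of the Tn5 offset, are not given in the sources used here. Peaks were called on both samples of a type at a q-value of 0.001, per the labels. The authors' value per peak is a fold, a ratio over the peak caller's background, used only for ranks within a list. PY230, UAR and URR regions carry a score deposited by the authors on a scale not given here, and only their positions were used. UAR and URR are not spelled out in the labels.

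Peak coordinates were kept as deposited, grid-based lists were moved by 1 base, and mitochondrial peaks were left out. Overlap means 1 bp or more. Scripts ran in Python 3.11.15 with pandas 2.3.3, numpy 2.4.6, scipy 1.17.1 and matplotlib 3.10.9, and overlaps were checked on simulated data against bedtools 2.31.1. No test was run, since each type has 1 list. Alternatives were an overlap of 50% of the peak, the 30015 strongest peaks of each luminal list, peaks at or above the median fold, autosomes only, a fixed 500 bp width, joining peaks at most 500 bp apart and, added after seeing the data, the centre base and the rank classes at 500 bp. Named regions are the 5 peaks or pairs of highest rank, 3 longest runs with ties, 3 densest windows of 1 Mb per list, and 2 peaks per PY230 list. Members and lists were chosen with earlier results of these data known. Gene lists and motifs were not used, because no mm9 annotation or genome was at hand.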

Additional observations from a re-analysis of the deposited data

How the results depend on the processing

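No paired analysis was possible because each cell type has 1 list that pools its samples, and for the same reason no sample could be left out. In each of the 7 alternatives the basal, fMaSC and open shares stayed higher in luminal-progenitor-only peaks and the closed share higher in mature-luminal-only peaks. Of 72 values under an alternative, 27 lay within the counting interval of the main value. With 50% of the peak covered, 58.19% of luminal progenitor and 58.45% of mature luminal peaks were shared. With the strongest 30015 peaks these shares were 65.97% and 66.14%, at or above the median fold 66.73% and 65.54%, and at 500 bp 62.88% and 61.37%. Merging gave 66% of luminal progenitor peaks. At 500 bp, 95.1% of luminal progenitor and 95.86% of mature luminal peaks of the strongest class were shared, and 34.26% of mature luminal peaks of the weakest class.

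Among luminal-progenitor-only peaks, the basal share was 57.01% (50% covered), 80.43% (strongest), 79.79% (median fold), 54.15% (500 bp) and 55.39% (centre base). The fMaSC share was 48.72% (50% covered), 79.86% (strongest), 79.37% (median fold), 56.8% (merged) and 49.48% (centre base). The open share was 6.523% (50% covered), 6.432% (strongest) and 6.592% (median fold), and the closed share 1.175%, 1.919% and 1.769% in the same order and 1.45% at 500 bp.

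Among mature-luminal-only peaks, the basal share was 36.76% (strongest), 36.56% (median fold), 21.66% (500 bp), 21.74% (merged) and 20.64% (centre base). The fMaSC share was 16.1% (50% covered), 31.06% (strongest), 30.9% (median fold), 21.12% (500 bp) and 16.61% (centre base). The open share was 0.1279% (strongest) and 0.1215% (median fold). The closed share was 39.69% (50% covered), 59.42% (strongest), 58.63% (median fold) and 36.24% (500 bp). In the alternatives limited to strong peaks, a peak with a weaker counterpart in the other list counts as unshared, so those classes hold other sites than the main ones. Depth is unknown, and a missing peak may be a site below the threshold of calling.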

Other observations

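The deposited folds are spaced in equal steps. All 177 distinct folds of the luminal progenitor list were whole multiples of 0.208, and all 173 distinct folds of the mature luminal list were whole multiples of 0.249, within 0.01 of a step. The lowest fold was 15 steps in luminal progenitors and 14 steps in mature luminal cells. As many as 2440 luminal progenitor and 2345 mature luminal peaks share 1 value, which is why rank classes are unequal in size.

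Shared sites that neither basal nor fetal cells had open ranked lower in the luminal progenitor list than in the mature luminal list. These 4015 pairs had a median at percentile 32.7 of luminal progenitor folds and at percentile 56.8 of mature luminal folds. The 26863 pairs with both a basal and an fMaSC peak had medians at percentile 72.3 and 67.7.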
